A study of Mus musculus with 14 samples.

Results

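Tripotent clones of mouse bone marrow stromal cells were compared with osteo-adipogenic clones, which form bone and fat but not cartilage in the same assay. The members are 6 of the 14 RNA libraries of the study: the 3 libraries of the group named OAC (osteogenic, adipogenic and chondrogenic) and the 3 of the group named OA (osteogenic and adipogenic). Each was placed in its group by its label alone, and the only labelled difference between the groups is that the OAC clones could also make cartilage. The comparison itself was chosen with earlier results of these data known. No gene passed the test between the groups, and on 2 measures the OAC and OA libraries were on average about as close to each other as libraries of the same group were. Sox9, the cartilage master regulator, was read in all 6 libraries with overlapping levels, and the Sox9 mean was lower in OAC than in OA.

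Cartilage formation starts when progenitors condense and switch on Sox9, a transcription factor that works together with Sox5 and Sox6 to activate the cartilage matrix genes Col2a1 and Acan. BMP and TGF-beta ligands drive this step, and antagonists such as Grem1 and the decoy receptor Bambi restrain it. Bone formation needs Runx2 and Sp7, and fat formation needs Pparg and Cebpa. Marrow stromal cells that retain these potentials are also known as a niche for blood stem cells, through secreted factors such as Cxcl12 and Kitl.

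All 6 libraries came from stromal cells flushed out of the femora and tibiae of adult mice of the strain C57Bl/6 that carry the irtTA-GBD*-TAg transgene. In both groups dexamethasone and 1 µg/ml doxycycline kept the large T antigen of this transgene switched on while the cells were expanded and cloned, by limiting dilution or by sorting of single cells. Potential was scored after removal of both agents, in 96-well plates, and RNA was taken after 3 days without them. The labels name no lineage induction before the RNA was taken, so the levels describe the clones before any labelled induction. Whether some cultures had begun to differentiate was not tested. The cells of both groups had carried an active viral oncogene. OAC1, OAC2, OA1 and OA2 are each 1 clone, with numbers 1 and 2 from different mice, and OAC3 and OA3 are each a pool of several other clones of those mice. The 3 libraries of a group therefore stem from 2 mice, and the p-values measure the spread between clones and pools.

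Total counts lay between 16888190 and 24190742 per library. The stromal markers Pdgfrb, Pdgfra, Cd44, Prrx1 and Col1a1 were read in all 6 libraries, whereas Thy1 did not pass 0.107 CPM (the count of a gene scaled to library size) and Ptprc, the pan-blood-cell marker, had 0 counts in each. OA2 and OAC3 lay farthest apart. The rank correlation of expression with the GC content of the genes, taken on each library's deviation from the mean, was 0.65 in OA2, 0.35 in OAC1 and 0.36 in OAC2 but -0.54 in OAC3 and -0.43 in OA3, the pools. It was 0.09 in OA1. This trend runs across both groups and its part in the results was not tested other than by a fit with GC offsets, which also called 0 genes.

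Libraries of different groups were on average about as alike as libraries of the same group. Over the 13896 tested genes, the median absolute log2 difference between an OAC and an OA library averaged 0.466 (SD 0.153, 9 pairs), against 0.514 (SD 0.145, 6 pairs) for 2 libraries of the same group. It averaged 0.433 among the 3 OAC pairs and 0.594 among the 3 OA pairs. With single clones only, the between-group minus within-group difference was -0.02. OAC1 and OAC2 (0.330) were nevertheless closer than any pair of single clones across the groups. Pearson correlations of log2 CPM ran from 0.802 to 0.974 between the groups, from 0.889 to 0.943 within OAC and from 0.829 to 0.925 within OA. These are correlations across genes, which are not independent replicates, and pairs share libraries, so no test was made.

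By Pearson's r each OA library had an OAC library as its nearest neighbour of all 14. OA1 was nearest to OAC1 (r = 0.941), OA2 to OAC2 (r = 0.916) and OA3 to OAC3 (r = 0.974). By the median absolute log2 difference only OA2 did, with OAC1 (0.530), while OA1 was nearest to the adipogenic clone A1 (0.337, against 0.353 for OAC1) and OA3 to the osteogenic pool O3 (0.199, against 0.230 for OAC3). Among the 6, OAC3 and OA3, the pools, formed the closest pair on both measures, and OAC3 and OA2 the most distant at 0.802. OAC1 and OAC2 were closest to each other among the 6 (r = 0.943), while over all 14 libraries OAC1 was nearest to A1 (r = 0.955). Between-group pairs stayed closer on average than within-group pairs when any library other than OA3 was left out, and without OA3 they were farther apart by 0.03.

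**Figure D1:**
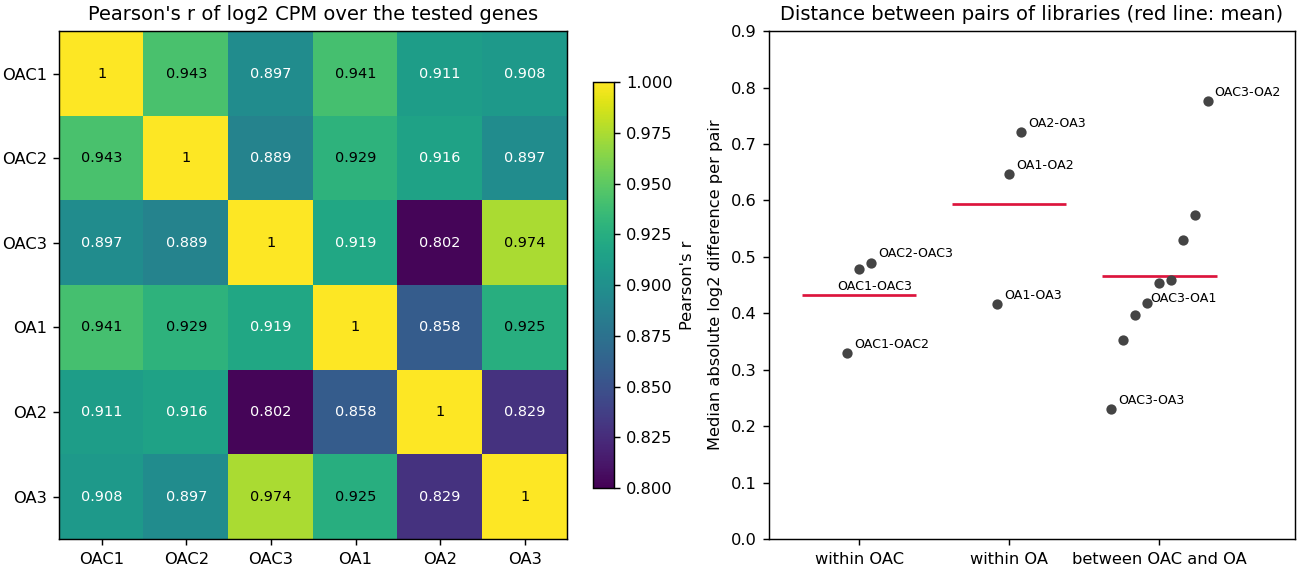
Left, Pearson's r of log2 CPM over the 13896 tested genes for every pair of the 6 libraries, with brighter colours for higher r. Right, the median absolute log2 difference of each pair (points) by kind of pair, with the mean of each kind as a red line. The 9 between-group pairs spread from 0.230 (OAC3 with OA3) to 0.776 (OAC3 with OA2) and take in the range of the 6 within-group pairs.

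Gene by gene, the test across all 13896 genes called 0 genes higher and 0 genes lower in OAC at an adjusted p below 0.05 (edgeR's quasi-likelihood F test with Benjamini-Hochberg adjustment, percent called 0). The smallest adjusted p was 0.9997. At an unadjusted p below 0.05 edgeR listed 163 genes (1.17%), with 101 means higher in OAC (0.727%) and 62 lower (0.446%), where a share of 5% is the nominal level. DESeq2 also called 0 genes and listed 283 (2.04%) at that unadjusted level, 179 higher (1.29%) and 104 lower (0.748%). In 293 genes (2.11%) every OAC library was above every OA library, and in 392 (2.82%) every OAC library was below, which is 685 genes (4.93%) in either direction.

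A missed threshold does not show that groups are alike, so the interval of each difference was also read. The fitted OAC to OA difference was under 2-fold in 13272 genes (95.5%), it was above 0 in 6981 genes (50.2%), and its median was 0.00 on the log2 scale with a median standard error (SE) of 0.41. Errors after ± beside a log2 fold change are SEs from this fit, and fold changes are OAC minus OA. For 5550 genes (39.9%) the whole 95% interval lay within 2-fold either way, and for 901 (6.48%) it lay within 1.5-fold. For the other genes a change of 2-fold or more was neither detected nor excluded at 3 libraries a group. In counts simulated from these libraries, edgeR recovered 1 of 50 genes changed 2-fold, 20 of 50 changed 4-fold, 32 of 50 changed 8-fold and 38 of 50 changed 16-fold. The simulated counts were drawn independently around a common mean per gene and carried no GC trend. Recovery in the real libraries may therefore differ and was not tested.

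The same fit gives the other pairs of groups as a scale. The share of genes with a fitted change over 2-fold was 4.49% between OAC and OA, 8.22% between OAC and the adipogenic clones (A), 10.4% between OAC and the osteogenic clones (O), 9.50% between OA and A, 9.79% between OA and O and 13.2% between O and A. Genes at an unadjusted p below 0.05 numbered 498 (3.58%) for OAC against A, 836 (6.02%) for OAC against O, 733 (5.27%) for OA against A, 755 (5.43%) for OA against O and 1374 (9.89%) for O against A. OAC against OA had the lowest value on both counts. Most of these comparisons share libraries with one another, and the differences between them were not tested.

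**Figure D2:**
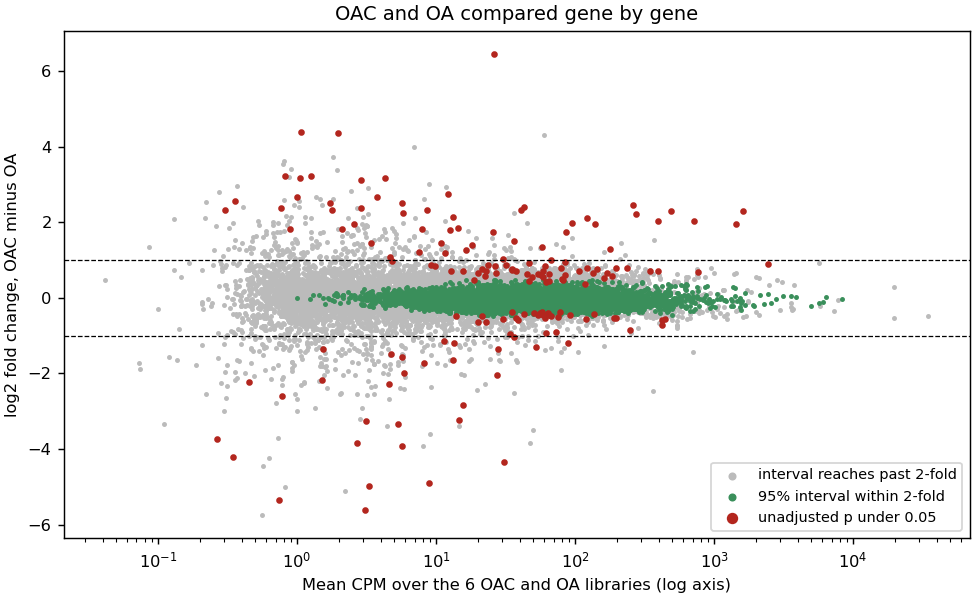
Fitted log2 fold change of OAC minus OA against the mean CPM of the 6 libraries (log axis), 1 point per tested gene. Green points are the 5550 genes whose 95% interval lies within 2-fold (dashed lines), red points the 163 genes with an unadjusted p below 0.05, and grey points the rest.

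Genes that took the largest share of reads, mitochondrial genes left out, were matched between the groups in part. Bgn, a matrix proteoglycan, gave 5929, 5394 and 4941 CPM in OAC1 to OAC3 and 3911, 9519.8 and 4551 CPM in OA1 to OA3, a log2 fold change of -0.14 ± 0.35 with a 95% interval of -0.92 to 0.63. The cytoskeletal genes Flna, Myh9 and Actb also had intervals within 2-fold, at fold changes of -0.04, 0.02 and -0.12 on the log2 scale. For Col1a1, Col1a2, Sparc, Fn1, Acta2 and Eef2 the interval reached past 2-fold on at least 1 side. Among regulators, Srebf1, an activator of lipid synthesis genes, differed by 0.00 (-0.45 to 0.45), Fgfr1, a fibroblast growth factor receptor, by 0.14 (-0.32 to 0.60), and Pdgfrb, a stromal growth factor receptor, by 0.00 (-0.65 to 0.64) on the log2 scale. Smo, the Hedgehog signal transducer, Notch2, Igf1r and Atf4 were bounded within 2-fold as well.

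The lineage and state lists, by contrast, had few bounded genes. Of the 369 distinct list genes tested, 43 (11.7%) had an interval within 2-fold, beside 39.9% of all tested genes, a difference that was not tested. Of these genes 8 (2.17%) had an unadjusted p below 0.05, beside 1.17% of all genes: Sox5, Foxc1, Cxcl12, Vcam1, Sfrp4 and Peg10 with higher means in OAC, and Bambi and Ifitm5 with lower means. None passed after adjustment.

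Cartilage transcription factors were read at low to moderate counts in both groups. Of 13, 11 were tested and 0 were called, 8 had a fold change above 0, and the list's median was 0.32 on the log2 scale, beside 0.00 over all genes. Without OA2 that median was 0.02. Sox9 (ENSMUSG00000000567) stood at 12.4, 8.73 and 19.7 CPM in the OAC libraries and at 11.7, 24.7 and 23.8 CPM in the OA libraries. The groups overlapped, with OAC2 lowest and OA2 highest. The difference was -0.56 ± 0.48, with an interval from -1.63 to 0.51 on the log2 scale, whose upper end is less than a 1.5-fold higher level in OAC. As RNA came from whole cultures, fewer expressing cells and less RNA per cell cannot be told apart, here or below.

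Sox5 (ENSMUSG00000041540), the partner of Sox9, was above the OA range in every OAC library. It gave 8.38, 2.70 and 3.87 CPM in OAC1 to OAC3 and 2.65, 0.643 and 2.15 CPM in OA1 to OA3, a log2 fold change of 1.45 ± 0.58 (edgeR unadjusted p = 0.0298, adjusted p = 0.9997). OAC2 and OA1 were close, and without OAC1 the fold change was 0.85. Outside the comparison, Sox5 was at 11.0, 9.35 and 6.63 CPM in the adipogenic libraries A1 to A3. A1 and A2 were thus above every OAC library, although these clones are not labelled as chondrogenic. The osteogenic libraries O1 to O3 had 0.572, 0.811 and 0.974 CPM. Sox6, the other partner, did not pass 1.97 CPM in any of the 6 libraries. Foxc1, a forkhead factor that acts in cartilage and in the marrow niche, also separated the groups, with 54.0, 70.3 and 51.4 CPM against 48.4, 35.2 and 36.7 CPM (0.55 ± 0.22, unadjusted p = 0.029).

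The cartilage matrix genes that Sox9 activates did not separate the groups. Of 21, 10 were tested, 0 were called, 3 had a fold change above 0 and the median was -0.09. Col2a1 (ENSMUSG00000022483), the main cartilage collagen, was at 241, 99.4 and 18.2 CPM in OAC1 to OAC3 and at 16.2, 277 and 85.3 CPM in OA1 to OA3. Both groups held high and low libraries, the highest being OA2, and the difference of -0.08 ± 1.17 had an interval from -2.67 to 2.51. Leaving out OA2 gave 1.31 and leaving out OAC1 gave -1.10. Acan, the large cartilage proteoglycan, was below the test's count filter, with at most 0.672 CPM in these 6 libraries against 5.98 CPM in the osteo-chondrogenic pool OC3.

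Col11a1, a minor fibrillar collagen of cartilage, was even across OAC at 272, 304 and 273 CPM and uneven across OA at 33.8, 102 and 280.3 CPM, where only the pool OA3 reached the OAC level. Its fold change was 1.03 ± 1.14. Fmod, a collagen-binding proteoglycan, was at 268, 449 and 308 CPM against 457, 287 and 333 CPM (-0.07 ± 0.46), and Comp, a matrix glycoprotein of cartilage and tendon, at 2.78, 13.2 and 11.6 CPM against 3.35, 5.57 and 11.3 CPM (0.45 ± 0.58). Prg4, the joint lubricant, was read mostly in OA2, at 4.66 CPM, and Matn4 likewise at 22.1 CPM. Hypertrophic cartilage genes, which also mark bone-forming cells, had a median of -0.47 over 10 tested genes, 0 called, and it was 0.11 without OA1. Col10a1, the collagen of hypertrophic cartilage, had a mean of 18.2 ± 5.40 CPM (SD, n = 3) in OAC and 7.80 ± 4.58 CPM (SD, n = 3) in OA with overlapping libraries, while Ihh, the Hedgehog ligand of growth-plate cartilage, stayed at or below 4.26 CPM.

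The BMP and TGF-beta ligands and receptors that induce cartilage had a median difference close to 0. Over 15 tested of 19 the median was 0.03, with 0 called, and Tgfb2 was the 1 gene without overlap, at 82.5, 93.0 and 71.6 CPM in OAC and 62.9, 37.5 and 50.3 CPM in OA (0.71 ± 0.45), where 4.93% of all genes did not overlap in either direction. Tgfb1 was bounded within 2-fold (-0.04 ± 0.31). Bmpr1a, Bmpr2 and Tgfbr1, which encode receptor kinases, were each lowest in OA2, at 5.30, 5.94 and 1.12 CPM. Of the antagonists and feedback targets, 13 of 15 were tested, 0 were called and 10 had a fold change above 0. Smad6, Smad7 and Id3, which report BMP signalling, were bounded within 2-fold, at 0.13, -0.06 and 0.16 on the log2 scale.

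Bambi was the 1 gene of that list with all OAC libraries below OA, and Id4, a BMP target named here after its values were seen, the 1 with all above. Over all tested genes the shares were 2.82% below and 2.11% above. Bambi (ENSMUSG00000024232) stood at 7.85, 7.85 and 8.88 CPM in the OAC libraries and at 25.9, 12.5 and 18.4 CPM in the OA libraries. Its difference was -1.21 ± 0.49 (edgeR unadjusted p = 0.0319, adjusted p = 0.9997). Grem1, a secreted BMP antagonist that marks skeletal progenitors, had 45.9, 0.502 and 1.14 CPM in OAC against 3.55, 0.643 and 1.75 CPM in OA. Its fold change of 3.00 ± 1.47 rested on OAC1, and was -1.24 without that library. FGF receptors and feedback genes had 11 of 12 tested members above 0, none called and none without overlap, with a median of 0.35.

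Bone genes varied widely within both groups. The bone matrix and mineralization list had 19 of 20 members tested, 0 called, 12 below 0 and a median of -0.49, and the osteoblast transcription factors had 12 tested, 0 called and a median of 0.01. Sp7, the osteoblast factor downstream of Runx2, was at 5.20, 114 and 109 CPM in OAC1 to OAC3 and 216, 13.4 and 192 CPM in OA1 to OA3. OAC1 and OA2 were the low libraries. Runx2 itself ran at 92.9, 169 and 94.4 CPM against 168, 55.9 and 121 CPM (0.05 ± 0.47), and was lowest in OA2.

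Ibsp, a mineral-binding matrix protein, repeated the pattern of Sp7. It had 2.73, 125 and 207 CPM in OAC and 316, 1.02 and 1518 CPM in OA, with OA2 and OA3 at opposite ends, and a difference of -2.45 ± 2.09. Without OA3 that difference was -0.51. Alpl, the bone-type alkaline phosphatase, stood at 232, 1399 and 1094 CPM and 1111, 222 and 1436 CPM (-0.02 ± 1.01), again lowest in OAC1 and OA2. Col1a1, the main bone collagen, was at 28249, 36169.9 and 22487 CPM against 45130.1, 49060.4 and 27694 CPM (-0.49 ± 0.37) and was highest in OA2, the library with the lowest Ibsp. Bglap, the osteocalcin gene, stayed at or below 5.65 CPM. Ifitm5, an osteoblast membrane protein, had 14.4 CPM in OA3 and at most 0.552 CPM elsewhere, and its difference of -3.84 ± 1.38 (unadjusted p = 0.0188) was -0.31 without OA3.

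Fat genes showed higher OAC values for Lpl but not across the list. Lpl (ENSMUSG00000015568), the lipase that takes up circulating fat, was at 56.4, 237 and 136 CPM in OAC1 to OAC3 and at 46.2, 41.2 and 56.0 CPM in OA1 to OA3. The OA libraries lay close together and all OAC libraries were above them, OAC1 only just. The fold change was 1.58 ± 0.89 on the log2 scale with an interval from -0.40 to 3.56 (edgeR unadjusted p = 0.106, adjusted p = 0.9997), and 1.01 without OAC2. Of the fat storage and lipid handling genes, 16 of 20 were tested, 0 were called, 7 were above 0 and the median was -0.06.

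Pparg, the fat master regulator, had 18.6, 43.7 and 26.4 CPM in OAC and 10.4, 27.3 and 15.9 CPM in OA (0.73 ± 0.46), with OA2 inside the OAC range. Cebpa, its partner, was at 36.7, 95.3 and 44.1 CPM and 39.5, 95.1 and 31.6 CPM (0.08 ± 0.55), highest in OAC2 and OA2 alike. Plin4, a lipid droplet coat protein, was also highest in OAC2 and OA2, with 252, 459.8 and 247 CPM against 98.9, 426 and 185 CPM (0.43 ± 0.70). Fabp4, a fatty acid carrier, was at 8.33, 74.9 and 64.9 CPM and 34.0, 4.50 and 35.6 CPM (1.00 ± 0.85), with the low values in OAC1 and OA2. Adipoq, the adiponectin gene, had at most 8.86 CPM. Srebf1, Acaca, Fasn and Adipor2 had intervals within 2-fold. Over the adipogenic transcription factors the median was 0.08 for 13 tested genes, 0 called.

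**Figure D3:**
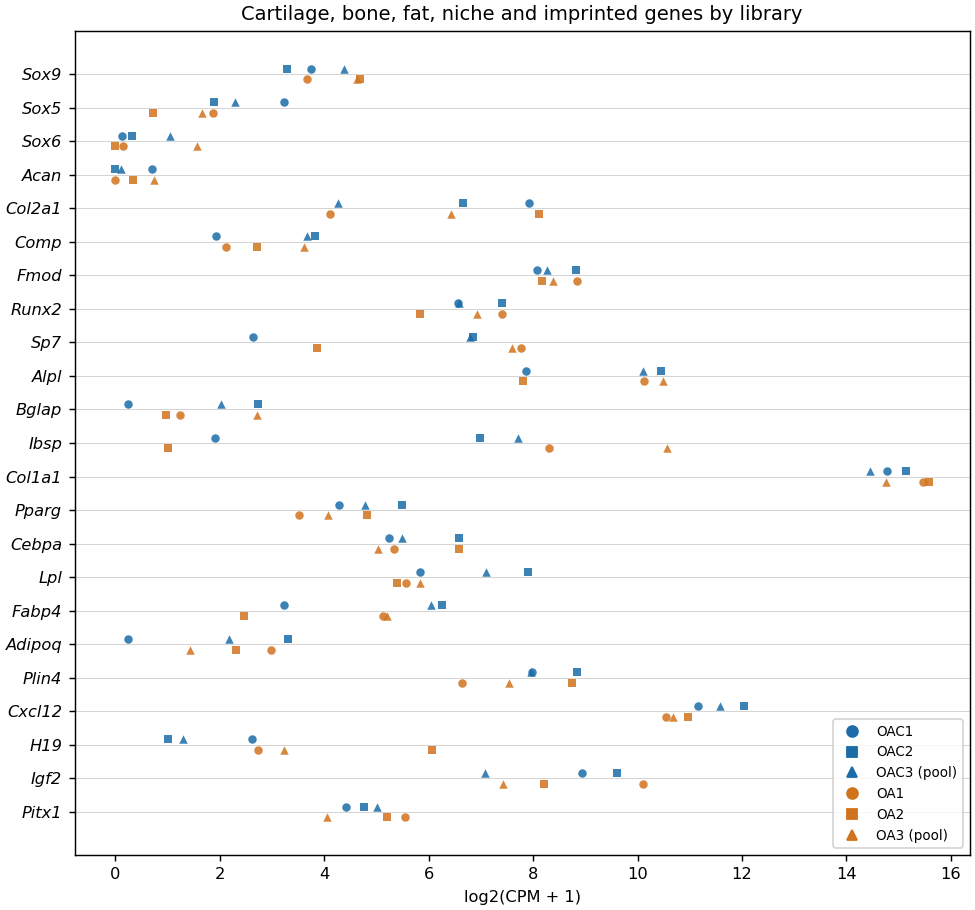
Level of the lineage genes in each of the 6 libraries as log2(CPM + 1), with OAC in blue, OA in orange and 1 symbol per library number (triangles are the pools). Sox5, Lpl and Cxcl12 are higher in all OAC than in all OA libraries and H19 is lower in all of them, while Sox9, Col2a1, Sp7, Ibsp and Pparg overlap.

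Most marrow niche genes had higher means in OAC, none past the test. Of 16, 13 were tested, 0 were called, 10 were above 0 and the median was 0.42. That median was 0.20 without OA1, and it also fell with the replicate number as a block. An unadjusted p below 0.05 was given for 3 of the 13 (Cxcl12, Vcam1 and Foxc1), beside 1.17% of all tested genes, and none passed after adjustment. Cxcl12 (ENSMUSG00000061353), a chemokine that retains blood stem cells within marrow, was at 2279.9, 4231 and 3062 CPM in OAC1 to OAC3 and 1485, 1997 and 1642 CPM in OA1 to OA3. Every OAC library was above every OA library. The mean was 3191 ± 982 CPM (SD, n = 3) in OAC and 1708 ± 262 CPM (SD, n = 3) in OA, a log2 fold change of 0.90 ± 0.35 (edgeR unadjusted p = 0.0255, adjusted p = 0.9997), and it stayed between 0.65 and 1.09 when 1 library was left out.

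Vcam1, an adhesion molecule of marrow stroma, had 84.9, 72.2 and 53.8 CPM against 41.2, 59.7 and 43.2 CPM (0.55 ± 0.24, unadjusted p = 0.043), with OAC3 below OA2. Kitl, the ligand of the Kit receptor, gave 11.2, 18.3 and 48.6 CPM and 17.1, 1.39 and 58.4 CPM (0.02 ± 1.08) and did not follow Cxcl12. Angpt1, a ligand of the Tie2 receptor, likewise had its high values in the pools, at 57.1 CPM in OAC3 and 37.1 CPM in OA3. Lepr, the leptin receptor that marks adult marrow stroma, did not pass 2.73 CPM. The levels of Cxcl12 in the other chondrogenic pools went both ways. It was at 290.5 CPM in OC3, against 645 CPM in the osteogenic pool O3. In the adipo-chondrogenic pool AC3 it was at 3668 CPM, against 2410 CPM in the adipogenic pool A3. The adipogenic clones A1 and A2, at 4828 and 5125 CPM, were above every OAC library, so a higher level was not particular to OAC.

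Among imprinted growth genes, which are expressed from 1 parental allele, single genes stood on opposite sides. Of 20, 14 were tested, 0 were called and the median was -0.09. H19 (ENSMUSG00000000031), a long noncoding RNA, was at 5.16, 1.00 and 1.46 CPM in OAC1 to OAC3 and at 5.66, 66.2 and 8.38 CPM in OA1 to OA3. All OAC libraries were below all OA libraries, but OAC1 and OA1 differed by little and OA2 stood far above the rest. The difference was -3.39 ± 1.58 (edgeR unadjusted p = 0.0562, adjusted p = 0.9997), and -1.41 without OA2.

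Igf2, the growth factor gene next to H19, overlapped between the groups at 490.3, 783 and 134 CPM and 1098, 294 and 171 CPM (-0.15 ± 1.07). Peg10, a gene derived from a retrotransposon that the deposited table lists as AC084315.1, was at 935, 249.6 and 140.4 CPM in OAC and 93.9, 83.8 and 62.3 CPM in OA (2.46 ± 1.02, unadjusted p = 0.0354). The groups of AC084315.1 did not overlap, and OAC1 held the highest value. Without OAC1 the fold change was 1.29. Its neighbour Sgce was also higher in every OAC library, at 86.5, 84.7 and 83.3 CPM against 68.1, 59.3 and 74.9 CPM, by 0.33 ± 0.23, but with GC offsets the difference was -0.48. Ndn, an imprinted growth suppressor, was highest in OA2 at 83.3 CPM, like H19.

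Wnt, Hedgehog, Notch and IGF genes gave no called gene. Secreted Wnt antagonists had 5 of 7 tested members above 0 and a median of 0.54, which ran from 0.18 without OA1 to 0.98 without OA2. Sfrp4, a soluble Wnt inhibitor, had 10.6, 1.82 and 2.17 CPM against 0.801, 0.589 and 1.39 CPM (2.38 ± 0.96, edgeR unadjusted p = 0.0323), 1.10 without OAC1. Sfrp2, a related inhibitor, was above the OA range in every OAC library at 1963, 1745 and 1570.3 CPM against 731, 1195 and 1418 CPM (0.66 ± 0.55). Wnt feedback targets had 6 of 12 above 0 and a median of -0.06. Lgr5, a receptor for R-spondins, was at 36.7 CPM in OAC2 and at most 1.66 CPM in the other libraries. The medians were -0.16 for the Hedgehog pathway (11 tested), 0.02 for the Notch pathway (9 tested) and 0.45 for IGF1 and its binding proteins (9 tested), the last -0.01 without OAC1. Without OA2 the median of the Wnt feedback targets was -0.48.

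Limb and positional genes gave no called gene. Over 13 tested limb patterning and Hox genes the median was 0.18, with 0 called, and Hoxa10, Hoxc9 and Hoxc10 were bounded within 2-fold. Pitx1, the hindlimb factor, was at 20.5, 25.9 and 31.3 CPM in OAC and 45.8, 35.7 and 15.7 CPM in OA (-0.32 ± 0.59). Tbx5, the forelimb factor, was 0 in 5 of the libraries and 2.15 CPM in OA1. The list of fibrillar and fibril-associated collagens had 8 of 16 genes above 0 and a median of -0.03, which was 0.41 without OA2. Col16a1 and Col6a3 were bounded. Small proteoglycans had a median of -0.19, which ran from -1.27 without OAC3 to 1.14 without OA3. Dcn, the decorin gene, stayed at or below 2.87 CPM.

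**Figure D4:**
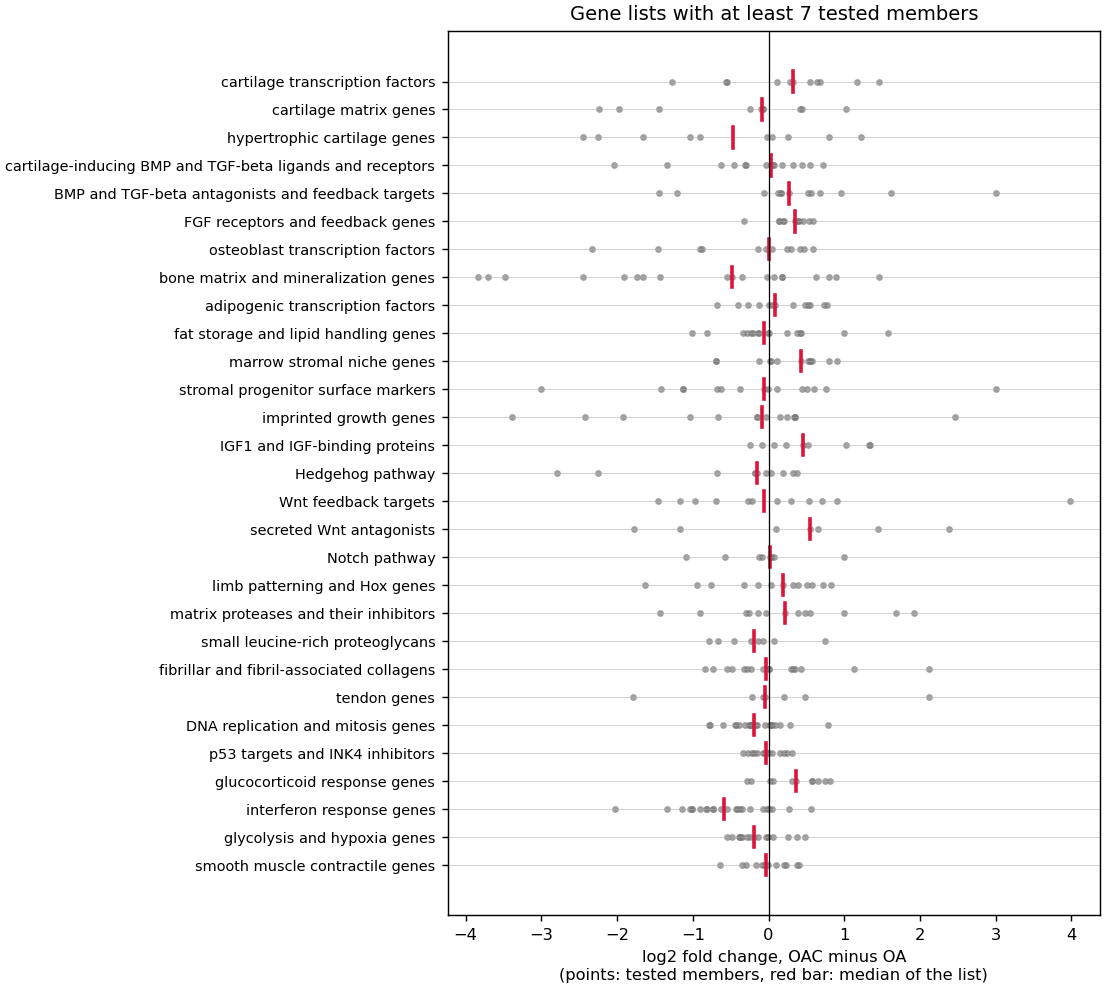
Log2 fold change of OAC minus OA for the tested members (grey points) of each list with at least 7 of them, with the list's median as a red bar. Medians lie between -0.59 (interferon response genes) and 0.54 (secreted Wnt antagonists), and the members of most lists spread on both sides of 0.

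Cell state lists varied between libraries of the same group. DNA replication and mitosis genes summed to 1679 to 2854 CPM in OAC and 1706 to 3257 CPM in OA, with OA1 highest and OAC1 lowest, and their median was -0.19 over 24 genes, 0 called. Mki67, a marker of cycling cells, ran at 8.55, 7.66 and 335 CPM in OAC and 115, 1.61 and 86.2 CPM in OA. The list members Mcm7, Birc5 and Aurka varied less, so Mki67 alone does not describe the list. Mcm7 was at 128, 187 and 157 CPM in OAC and 259, 139 and 156 CPM in OA. Birc5 was at 25.8, 19.7 and 26.7 CPM in OAC and 64.3, 33.7 and 24.9 CPM in OA. The p53 target and INK4 list, which reads out a pathway that large T antigen blocks, had 7 of 14 members bounded within 2-fold (50%) and a median of -0.03. Cdkn2a, the Ink4a and Arf gene, stood at 452, 283 and 585 CPM and 458, 508 and 548 CPM (-0.20 ± 0.36). Glucocorticoid response genes had 9 of 11 above 0 and a median of 0.36, with Sgk1, a kinase induced by dexamethasone, at 83.3, 64.0 and 43.0 CPM against 31.7, 41.5 and 40.8 CPM (0.74 ± 0.40).

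Interferon response genes had 20 of 24 members below 0 and a median of -0.59, with 0 called and none without overlap. Their summed level was 416 to 1079.9 CPM in OAC and 553 to 2195 CPM in OA. OA2 was highest and OAC1 lowest, and without OA2 the median was 0.02. Isg15, a ubiquitin-like interferon target, had 13.7, 70.7 and 58.0 CPM in OAC and 49.1, 229.9 and 34.2 CPM in OA, and Oas1a, an antiviral synthetase, 3.53, 9.55 and 4.66 CPM and 6.81, 60.1 and 5.29 CPM (-2.03 ± 1.40, and 0.02 without OA2). Glycolysis and hypoxia genes had 13 of 17 members below 0 with a median of -0.19, and they too summed highest in OA2.

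The genes with the lowest p among those with at least 5 CPM and no overlap were taken from both directions, 12 each. Predicted, clone-named and mitochondrial symbols were passed over. Fold changes in size ran from 0.71 to 2.25 (log2) among the 12 with higher OAC means and from 0.43 to 2.84 among the 12 with lower means. Their edgeR adjusted p was 0.9997 throughout and the smallest adjusted p by DESeq2 was 0.412. Odz4 (ENSMUSG00000048078), a teneurin adhesion protein, was at 204, 258 and 137 CPM in OAC1 to OAC3 and 52.1, 28.4 and 57.0 CPM in OA1 to OA3. The lowest OAC library was over 2-fold above the highest OA library. Its log2 fold change was 2.12 ± 0.52 with an interval from 0.97 to 3.27 (unadjusted p = 0.002), the lowest p of all genes.

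Smoc1, a secreted modulator of BMP signalling, stood at 5.07, 7.10 and 16.3 CPM in OAC and 2.45, 1.02 and 2.51 CPM in OA, a difference of 2.25 ± 0.59. Emb, a chaperone of lactate transporters, was at 18.3, 16.5 and 24.2 CPM against 7.56, 3.86 and 5.55 CPM (1.80 ± 0.48), and Pawr, a proapoptotic protein, at 57.5, 123 and 68.3 CPM against 24.8, 29.3 and 44.9 CPM (1.33 ± 0.36). Jak1, the kinase of many cytokine receptors, had 241, 356 and 305 CPM and 165, 152 and 209.6 CPM (0.78 ± 0.23). The OAC values of Pde4d, a cyclic AMP phosphodiesterase, were tight at 31.2, 31.5 and 28.1 CPM, as were the OA values at 16.2, 17.7 and 16.2 CPM (0.86 ± 0.27). Itga7, a laminin receptor subunit, Acadm, an enzyme of fatty acid oxidation, and Helb, Fgd6, Pdlim5 and Hivep1 complete the 12.

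In the other direction Cercam (ENSMUSG00000039787), an adhesion protein, had the lowest p. It was at 76.0, 35.6 and 49.9 CPM in OAC and 125, 138 and 108 CPM in OA, a difference of -1.20 ± 0.32 (edgeR unadjusted p = 0.0037, adjusted p = 0.9997). Atp9a, a lipid flippase, ran at 1.72, 1.07 and 8.68 CPM against 25.1, 46.6 and 10.9 CPM (-2.84 ± 0.94), with the pools OAC3 and OA3 close to each other. Pid1, a regulator of insulin signalling, was at 4.58, 0.691 and 1.74 CPM against 11.5, 6.91 and 9.81 CPM (-2.001 ± 0.69). Olfm1, Lsp1, Stac2, Ctsf, Xrcc1, Bambi and Cnp follow, together with the ribosomal genes Rpl6 and Rpl9. Rpl6, Rpl9 and Xrcc1 differed by -0.52, -0.49 and -0.43 with intervals within 2-fold, and the counts of the ribosomal genes are uncertain because near-identical copies exist.

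**Figure D5:**
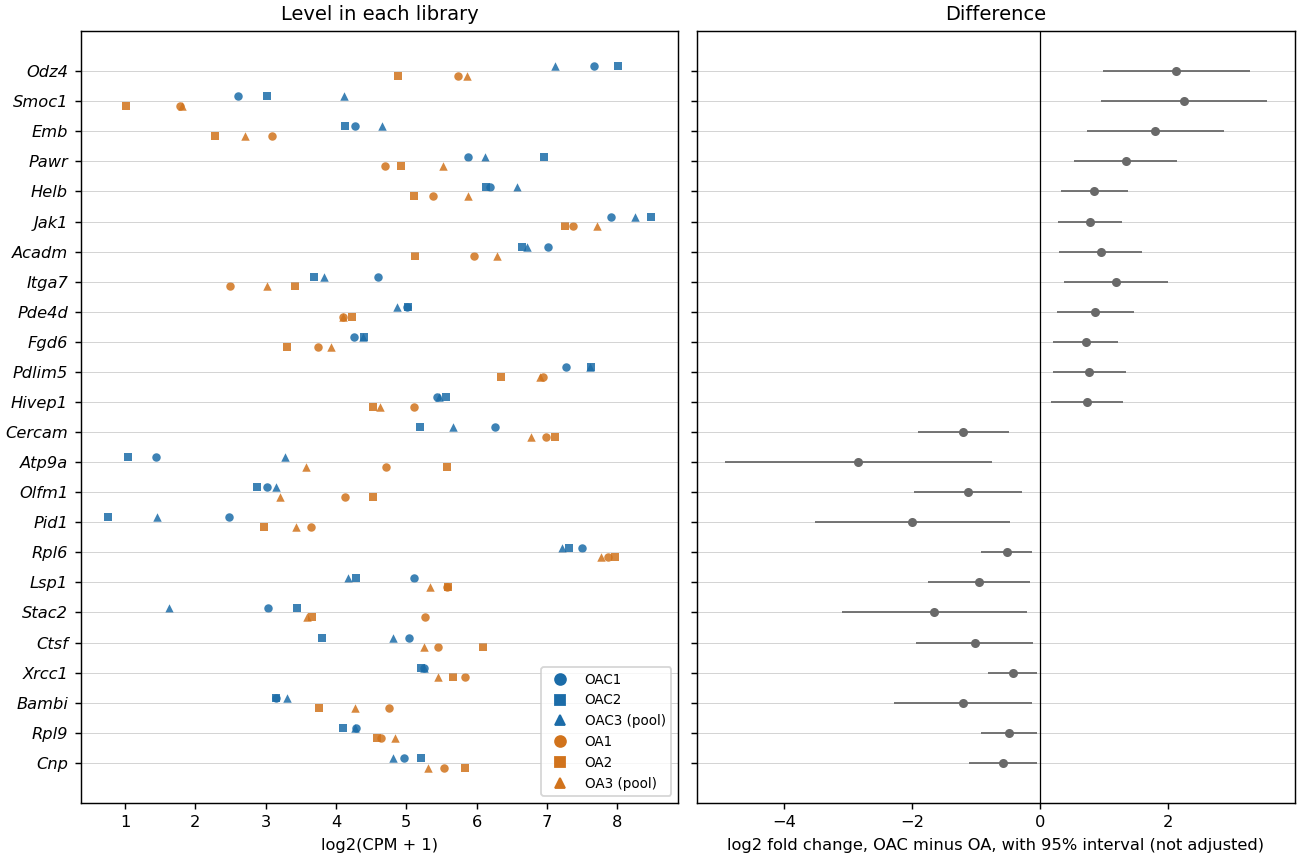
Left, log2(CPM + 1) of the 24 genes in each library (OAC blue, OA orange, triangles for the pools). Right, the log2 fold change of OAC minus OA (points) with its unadjusted 95% interval (lines). No interval crosses 0, a property that the choice by lowest p fixes, and no gene passes after adjustment.

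The other chondrogenic pools give values for these genes outside the comparison. OC3, from osteo-chondrogenic clones, and AC3, from adipo-chondrogenic clones, were set beside the osteogenic pool O3 and the adipogenic pool A3, 1 library each. Of the 12 genes with higher OAC means, 4 (Smoc1, Emb, Pde4d and Pdlim5) were higher in both OC3 and AC3 than in their counterparts, where 31.4% of all tested genes were. Smoc1 was at 17.2 CPM in OC3 against 7.08 CPM in O3 and at 34.9 CPM in AC3 against 31.9 CPM in A3. Odz4 went the other way, at 106 CPM in OC3 against 173 CPM in O3 and at 28.8 CPM in AC3 against 36.1 CPM in A3. Of the 12 with lower means, 5 (Olfm1, Pid1, Rpl6, Ctsf and Xrcc1) were lower in both, where 32.3% of all genes were, so both shares are near the background.

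Sox9 was at 25.4 CPM in OC3 and 24.4 CPM in AC3, against 13.6 CPM in O3 and 13.0 CPM in A3. Of all tested genes, 31.4% were higher in both pools in this way. The single clones O1 and O2 had 16.7 and 27.3 CPM of Sox9, and A1 and A2 had 6.16 and 18.7 CPM. O2 was thus above both chondrogenic pools, and the pool OAC3 (19.7 CPM) was below the pool OA3 (23.8 CPM). Sox5 was at 3.45 CPM in OC3 and 8.68 CPM in AC3, against 0.974 CPM in O3 and 6.63 CPM in A3. Sox6 reached 11.5 CPM in OC3 but 0 in AC3.

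Markers of blood and endothelial cells were low in both groups. The neural and skeletal muscle lists held single genes at higher levels, and the tendon and smooth muscle lists were high. The blood cell list summed to 8.86 to 19.4 CPM in OAC and 9.59 to 13.9 CPM in OA, the endothelial list to 3.64 to 5.76 CPM in OAC and 2.52 to 4.81 CPM in OA, and the Schwann and neural list to 11.7 to 37.7 CPM in OAC and 26.1 to 96.5 CPM in OA, the last highest in OA3 through Tubb3, a tubulin gene. S100b, of the Schwann and neural list, had 29.4 CPM in OAC2 and at most 7.39 CPM in the other OAC and OA libraries. Ptprc, Sfpi1, Tie1, Emcn and Sox2, which define blood, endothelial and neural cells, were at 0 in all 6 libraries. The skeletal muscle list summed to 22.6 to 82.7 CPM in OAC and 30.1 to 76.1 CPM in OA. Its member Acta1, an actin gene, was at 59.7 CPM in OAC2 and 51.1 CPM in OA2. The tendon list, which includes Fmod, summed to 2865 to 5521 CPM in OAC and 2577 to 3601 CPM in OA. The smooth muscle contractile list, which stromal cells in culture also express, summed to 10516 to 17137 CPM in OAC and 8670.2 to 27123 CPM in OA, highest in OA2, with a median difference of -0.04 that was 0.88 without OA2. Its part in the results was not tested. Of the sex-linked genes, Xist did not pass 0.118 CPM, and the Y-linked Ddx3y, an RNA helicase, was at 1.63, 3.52 and 26.7 CPM in OAC and 7.01, 0.428 and 52.8 CPM in OA. The list summed lowest in OA2 at 5.25 CPM and highest in OA3 at 129 CPM, so that libraries of 1 group stood farthest apart. Esm1, an endothelial-cell proteoglycan named after its values were seen, had the largest fitted log2 fold change, 6.44, with 151 CPM in OAC2 and at most 2.60 CPM in the others. Gpx3, a secreted peroxidase also named afterwards, had 342 CPM in OAC1 and at most 15.1 CPM in the others (4.30 ± 2.45). Both values rest on 1 library.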

How the data were processed

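Per the labels' protocols, mRNA was enriched with oligo(dT) beads and sequenced as strand-specific libraries. The values used are whole-number read counts per gene that the authors deposited in 1 table, with 23331 genes and 1 column per library, matched by the library names in its header. The tools named, per the submitters' processing notes, are CASAVA 1.8.0 and bedtools 2.11, and the build is mm9. Which aligner, read filters and strand setting were used is not given in the sources used here. Genes that overlap, run antisense or have near-identical copies therefore have uncertain counts, and 196 genes share a symbol.

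All computing started from these counts. A gene was tested if 3 or more of the 14 libraries reached 1 CPM, which 13896 genes did. edgeR 4.0.16 (R 4.3.3, TMM) fitted 6 group means over all 14 libraries and gave robust quasi-likelihood F tests, with Benjamini-Hochberg adjustment over all tested genes at 0.05. Standard errors were the absolute log2 fold change over the root of F, and 95% intervals used the t quantile of the fit's total degrees of freedom, without adjustment for the number of genes. Levels are CPM scaled by TMM and are not corrected for length. Libraries with totals of 16888190 to 24190742 counts were compared. The spread between libraries takes in clones, pools and the GC trend, and their parts in the precision were not separated. DESeq2 1.42.0, GC offsets, a replicate block, other filters and left-out libraries were alternatives. The procedure was tested on simulated counts, which carried no GC trend.

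The groups and 34 gene lists (450 of 469 list genes are in the table, 6 matched by Ensembl identifier) were chosen with earlier results of these data known. Named genes were the 12 of lowest p in each direction among genes with a mean of at least 5 CPM and groups without overlap. Predicted, clone-named and mitochondrial symbols were passed over in that choice. Added to these were 23 lineage genes and, for each list, the 2 of lowest p and the 1 of narrowest interval. The 10 genes with the highest mean CPM were also named, with mitochondrial genes passed over. Further list members given with values were picked after their values were seen. Lists are described by counts and medians, with no test. The values of 1 list member are not reported here.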

Additional observations from a re-analysis of the deposited data

How the results depend on the processing

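The 0 genes called in each direction stayed at 0 in all 16 edgeR alternatives run. DESeq2 called 0 genes with all libraries, but with 1 library left out it called 0 to 10 genes higher and 0 to 3 lower. Without OA3 these were 10 higher (Man1a, Timp3, Rab21, Helb, Trp63, Vit, Lama3, Rnf11, Lmo7 and Msrb3) and 1 lower (Olfm1), without OAC1 1 higher (Esm1) and 3 lower (Pid1, Elfn1 and Mn1), without OAC2 2 higher (Trpc6 and Synpo2), and without OAC3 2 lower (Atp9a and Gm53). In the simulated counts DESeq2 called 46 unchanged genes among 165 and edgeR 3 among 94. The number of genes at an unadjusted p below 0.05 was 163, 308 with no filter on low counts, 283 with DESeq2, 282 without OA2 and O1 (chosen after seeing the data), 99 to 467 in edgeR without 1 library (99 without OAC2, 467 without OA3) and in DESeq2 (also added after seeing the data) 352 without OAC1, 194 without OAC2, 410 without OAC3, 347 without OA1, 302 without OA2 and 818 without OA3. The 5550 genes bounded within 2-fold became 3175 with single clones only, which has fewer libraries, 901 within 1.5-fold and 3844 to 5260 without 1 library, and were more, at 6536, with GC offsets, 6713 with the block too and 6941 without OA2 and O1. The between-group minus within-group distance of -0.05 ran from -0.10 to 0.03 without 1 library.

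With the replicate number as a block, 0 genes were called and 174 had an unadjusted p below 0.05. The correlations of the deviations of same-numbered libraries were 0.01, 0.47 and 0.76, and the labels do not say that a number marks 1 mouse across groups, so the numbers were not taken to pair the libraries. OAC3 and OA3 share being pools.

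The fold changes of 135 named genes gave 3092 values under the alternatives, of which 2819 kept the sign and 273 did not, and 4 passed a threshold, all in DESeq2 without 1 library. Of the values with the other sign, 252 came from 44 genes whose fold change was within 1 SE of 0, such as Col2a1, Igf2, Sox6 and Bglap. The other 21 came from 10 genes, which were Grem1 (-1.24 to 3.72 without 1 library, lowest without OAC1, where DESeq2 gave -1.22), Ebf1 (-0.057 with GC offsets), Sgce (-0.48 with GC offsets, -0.46 with the block too), Notch4 (0.58 with single clones only, -1.51 to 0.46 without 1 library, 0.49 in DESeq2 without OA3), Col14a1 (-0.63 with the block, -0.47 with GC offsets too, -2.92 to 2.70 without 1 library, -2.96 in DESeq2 without OAC1), Oas1a (-2.55 to 0.016 without 1 library, 0.0038 in DESeq2 without OA2), Pfkp (-0.065 with single clones only), Bnip3 (-0.24 with GC offsets, -0.17 with the block too), Fcer1g (-1.81 to 0.50 without 1 library, 0.53 in DESeq2 without OA1) and S100b (-0.65 to 1.82 without 1 library, -0.63 in DESeq2 without OAC2). Of the list medians, 750 stayed within the spread between replicates and 32 moved beyond it. Those of the marrow niche genes moved with the block (0.12, and 0.11 with GC offsets too), those of the BMP antagonists also with single clones only (0.55), and all others only where libraries were left out. The cause was not tested.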
